A study of Rattus norvegicus with 6 samples.

Results

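Fibrosis genes were followed in the liver poly(A) RNA of male Fischer-344 rats: the fibrillar collagens Col1a1, Col1a2 and Col3a1, the cytoskeletal genes Acta2 and Vim, the growth factor gene Tgfb1, the matrix protease Mmp2 and its inhibitor Timp1, and the matrix glycoproteins Fn1 and Sparc. They were chosen as a list of 10 Ensembl gene IDs, and all 10 were found among the 43360 IDs of the count tables and passed the low-count filter, as did 16898 IDs in all. The symbols are those of the list, since no annotation used here pairs Ensembl IDs with symbols, so the pairing was not tested. For the same reason other fibrosis genes and markers of hepatocytes, stellate cells, endothelium or leukocytes were not analysed here, and the tissue label was not tested against markers.

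Control rats (about 180 g, age not given) received only the oral carboxymethyl cellulose vehicle. HCC rats received diethylnitrosamine (DEN), an alkylating liver carcinogen, by weekly injection at 50 mg/kg, followed by oral 2-acetylaminofluorene (2-AAF), an aromatic amine carcinogen, at 25 mg/kg. HCC/NAC rats received both carcinogens and, each day, oral N-acetylcysteine (NAC), a cysteine donor and antioxidant, at 300 mg/kg. Treatment lasted 16 weeks, 18 rats were divided among the 3 groups, and RNA from 5 animals of each group was pooled to make 2 libraries. The labels call these animals mice in 1 place and rats elsewhere. The sample titles number the 2 libraries of a group as biological replicates, but the labels do not say whether these held different animals. The p-values below thus rest on the spread between libraries alone, which may be technical. Animals given NAC alone were not analysed here. The libraries were made from 50 mg pieces of liver whose content of tumour or scar was not given.

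Liver fibrosis is the deposition of collagen-rich matrix after repeated injury. Quiescent stellate cells store vitamin A, and on activation, for which TGF-beta 1 is the best-known signal, they become contractile myofibroblasts that make smooth muscle actin and fibrillar collagen. The matrix is remodelled by metalloproteinases, which are held in check by tissue inhibitors. Hepatocytes also contribute matrix proteins, above all fibronectin for the plasma. In bulk liver RNA, fewer cells of a type and less RNA per cell cannot be told apart.

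The 10 genes did not move as a block. In HCC livers Acta2, Timp1, Vim, Col1a1 and Col1a2 rose by 1.70- to 4.13-fold. Tgfb1 and Mmp2 rose by less, and lost their calls in 4 of 14 and 5 of 15 alternative fits. Fn1 fell by 1.48-fold. Sparc and Col3a1 fell by less, and only where libraries were not scaled by their totals. In HCC/NAC livers Col1a1, Col1a2, Acta2, Tgfb1 and Mmp2 had no call against control. Of these, Acta2 had a wide 95% interval (log2 change -0.31 to 1.14) and Mmp2 lay at the edge of the threshold (adjusted p = 0.0503, edgeR). Vim remained 2.77-fold and Timp1 2.44-fold above control, and Sparc was at its lowest level. A gene was called, and is said to have risen or fallen, at a Benjamini-Hochberg adjusted p under 0.05 over all 16898 IDs in the quasi-likelihood test of edgeR. Levels are in CPM, the count scaled to a common size of the library after correction by the trimmed mean of M values (TMM).

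Promoter sequences were held by RefSeq (build GRCr8) for 6 of the 10 genes, matched by symbol, as windows of 250 bases before to 50 bases after the annotated start. The windows of 4 of the genes that rose in HCC livers are shown, to set side by side the sequence upstream of 1 collagen chain, 2 cytoskeletal genes and 1 protease inhibitor. Each is written 5′ to 3′ in the direction of the gene. Capitals mark every match, on either strand, to the 5 short motifs that are named and spelled out after the sequences.
Col1a2, chr4:33518307-33518606, plus strand: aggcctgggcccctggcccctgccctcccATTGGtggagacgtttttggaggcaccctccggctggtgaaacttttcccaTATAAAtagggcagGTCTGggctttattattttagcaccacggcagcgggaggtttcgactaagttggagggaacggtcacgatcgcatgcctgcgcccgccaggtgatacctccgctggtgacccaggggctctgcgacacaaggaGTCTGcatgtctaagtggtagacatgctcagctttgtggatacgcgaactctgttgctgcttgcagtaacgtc
Acta2, chr1:241172454-241172753, minus strand: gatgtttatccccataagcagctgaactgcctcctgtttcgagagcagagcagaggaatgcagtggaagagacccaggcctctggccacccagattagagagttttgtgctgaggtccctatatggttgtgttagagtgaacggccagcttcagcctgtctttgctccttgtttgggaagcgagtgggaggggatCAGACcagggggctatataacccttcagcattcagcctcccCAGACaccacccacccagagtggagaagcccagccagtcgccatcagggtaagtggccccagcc
Vim, chr17:81577011-81577310, plus strand: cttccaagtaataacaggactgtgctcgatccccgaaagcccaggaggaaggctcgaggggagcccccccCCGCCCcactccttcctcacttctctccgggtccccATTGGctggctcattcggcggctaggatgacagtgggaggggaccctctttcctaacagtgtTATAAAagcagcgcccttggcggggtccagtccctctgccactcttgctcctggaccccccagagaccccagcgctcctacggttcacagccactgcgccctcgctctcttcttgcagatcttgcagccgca
Timp1, chrX:3771073-3771372, minus strand: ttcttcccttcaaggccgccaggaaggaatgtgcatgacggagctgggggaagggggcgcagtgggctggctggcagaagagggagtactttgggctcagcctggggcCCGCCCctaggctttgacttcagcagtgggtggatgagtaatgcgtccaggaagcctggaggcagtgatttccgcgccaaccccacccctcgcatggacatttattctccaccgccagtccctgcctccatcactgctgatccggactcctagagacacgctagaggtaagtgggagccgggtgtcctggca
No match was common to these 4 windows. The letters TATAAA, taken for a TATA box, were found in Col1a2 (positions -170 to -165 from the start) and in Vim (-82 to -77), beside 14.2% of all 33469 rat promoter windows of 300 bases. The CCAAT box was found on the minus strand in the same 2 genes, 2 of the 6 with a window, beside 37.5% of all windows. The GC box, GGGCGG, matched in Vim and Timp1, beside 33.1% of all windows. The SMAD element, CAGAC, had 2 matches each in Col1a2 and Acta2 and 3 in Sparc, a gene that fell, and was present in 50.1% of all windows. The AP-1 site, TGANTCA, had no match in any of the 6 windows, beside 7.33% of all windows, and the Tgfb1 window held none of the 5 motifs. These are matches of letters and not binding sites, and the start used in these livers was not measured.

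Library totals ranged from 33917707 to 37717373 counts, and TMM factors were 0.92 and 0.91 for control, 1.19 and 1.18 for HCC and 0.92 and 0.92 for HCC/NAC. Control replicate 1 held 336 IDs with 1 to 5 counts, beside 3271 in control replicate 2, 2847 and 3364 in HCC and 632 and 708 in HCC/NAC livers. The lowest count among the 10 genes was 74, for Acta2 in control replicate 2. The deposited control tables carry another name prefix than the 4 tables of carcinogen-treated livers. What the prefix stands for is not given, and a difference tied to it cannot be told apart from the carcinogen treatment. Together the 10 genes took 0.174% and 0.172% of all counts in control, 0.182% and 0.177% in HCC and 0.130% and 0.128% in HCC/NAC livers, a sum led by Fn1.

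**Figure D1:**
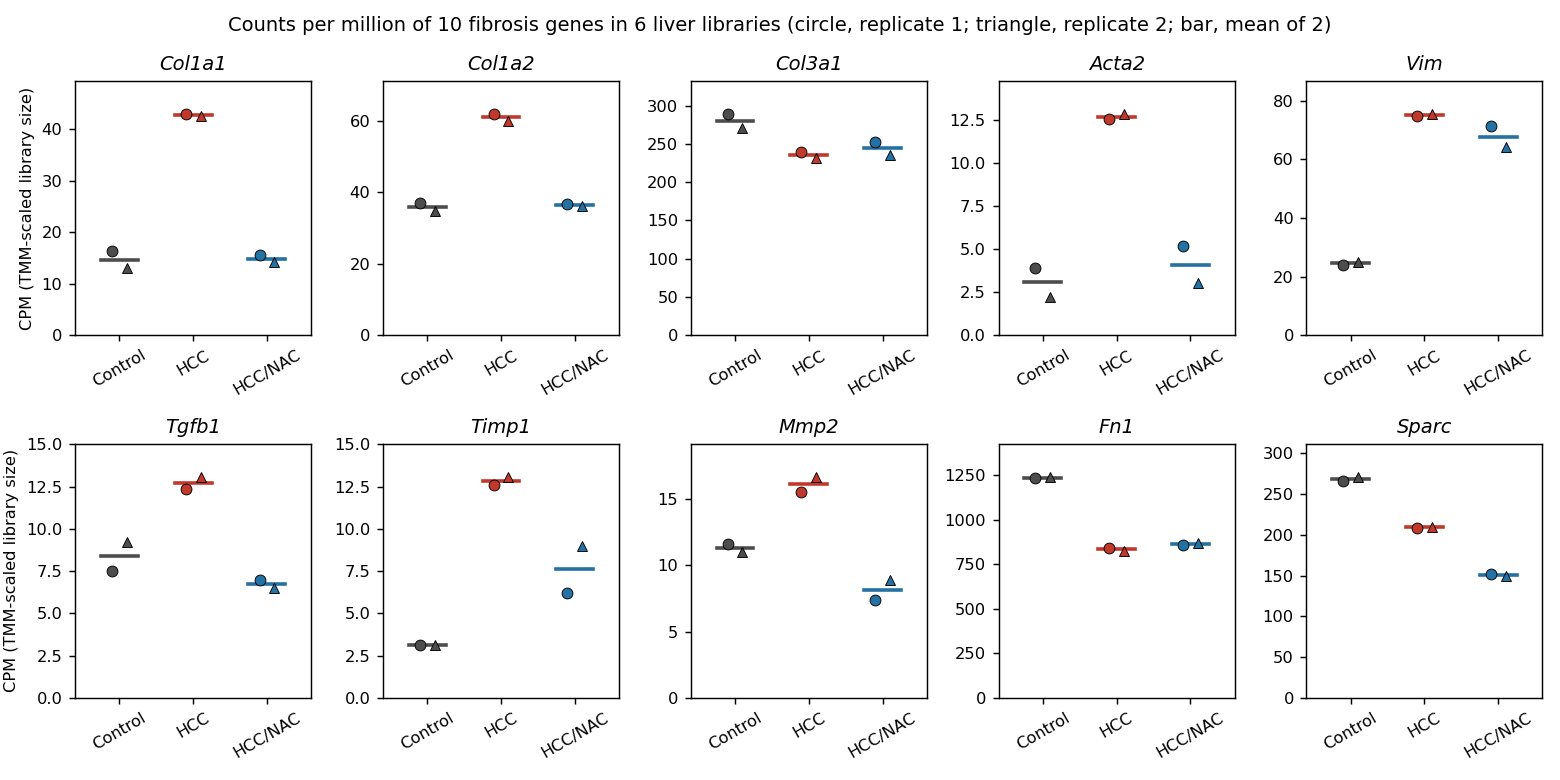
Level of each of the 10 genes in each library, in CPM of the TMM-scaled library size on a linear axis from 0. Circles are replicate 1, triangles replicate 2 and bars the mean of 2 libraries. Col1a1 stands at 42.9 and 42.5 CPM in HCC and at 16.4 CPM or less in the other 4 libraries, whereas Vim stays above 64 CPM in all 4 carcinogen-treated libraries. Sparc and Col3a1 are lower in HCC than in control with TMM, RLE and upper-quartile scaling, but neither has a call with library totals (log2 changes of 0.01 and 0.12).

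HCC was compared with control for these genes, 2 groups that differ in treatment and in the name prefix of their tables. All 10 were called, 7 higher and 3 lower, whereas 34.8% of all IDs tested were called, 17.0% higher and 17.8% lower. The 2 groups did not overlap for any of the 10 genes, beside 72.4% of all IDs. Among the 8832 IDs at least as abundant as the least abundant of the 10 (mean of 6.63 CPM) 50.8% were called. The median log2 change of the 10 genes was 0.69, beside 0.05 over all IDs, with a range from -0.57 to 2.05. Only Acta2, Timp1, Vim and Col1a1 were called with a change of at least 2-fold, beside 16.2% of all IDs.

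Type I collagen, the main fibre of scar tissue, is a heterotrimer of the chains encoded by Col1a1 and Col1a2. Col1a1 (ENSRNOG00000003897) was at 16.4 and 12.99 CPM in control and at 42.9 and 42.5 CPM in HCC livers. The 2 groups did not overlap, and the HCC replicates lay closer together than the control replicates. The log2 change was 1.54 ± 0.14 (SE; adjusted p = 3.56e-06, edgeR), or 2.91-fold. Col1a2 (ENSRNOG00000011292) rose from 36.9 and 34.7 CPM to 61.8 and 59.95 CPM, a smaller change of 0.77 ± 0.09 (SE) on the log2 scale (adjusted p = 3.67e-05, edgeR). The 95% intervals of the 2 log2 changes, 1.23 to 1.85 for Col1a1 and 0.56 to 0.97 for Col1a2, did not overlap. The ratio of Col1a1 to Col1a2 counts, which needs no scaling between libraries, was 0.444 and 0.375 in control and 0.694 and 0.709 in HCC livers. With 2 libraries against 2, an exact permutation test of such a ratio cannot go below p = 0.333, and none is given.

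Col3a1 (ENSRNOG00000003357), which encodes the single chain of type III collagen, a component of fine reticular fibres, did not share the rise. It had 9974 and 8984 counts in control and 10782 and 9273 in HCC livers. In CPM it was at 289 and 271 in control and 239 and 231 in HCC livers, a fall of 1.19-fold (log2 change -0.25 ± 0.06, SE; adjusted p = 0.00422, edgeR) that turned to 0.12 without a call (adjusted p = 0.111, edgeR) when libraries were scaled by their totals. Under that scaling, chosen after the data were seen, the median of all IDs was 0.42, so Col3a1 lay below the median with both scalings. The ratio of Col3a1 to Col1a1 counts dropped from 17.7 and 20.9 in control to 5.58 and 5.44 in HCC livers, with no overlap.

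Acta2 (ENSRNOG00000058039), which encodes alpha smooth muscle actin, the classical marker of myofibroblasts and also a gene of vascular smooth muscle, had, with Timp1, the largest log2 change of the 10. It was at 3.91 and 2.23 CPM in control, from 135 and 74 counts, and at 12.6 and 12.9 CPM in HCC livers. The control replicates lay 1.75-fold apart, yet both were far below the HCC libraries. The log2 change was 2.05 ± 0.33 (SE; adjusted p = 0.000387, edgeR). Actin genes are near-identical in coding sequence, and how reads shared between them were counted is not given, so the Acta2 values are uncertain to that extent. Vim (ENSRNOG00000018087) encodes vimentin, the intermediate filament of mesenchymal cells, also present in endothelium and leukocytes. It rose from 24.0 and 25.0 CPM to 75.0 and 75.5 CPM, 3.07-fold (log2 change 1.62 ± 0.09, SE; adjusted p = 3.84e-08, edgeR).

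Tgfb1 (ENSRNOG00000020652), the profibrotic cytokine, was at 7.53 and 9.21 CPM in control and at 12.3 and 13.1 CPM in HCC livers. The groups did not overlap, and the log2 change was 0.60 ± 0.20 (SE; adjusted p = 0.0346, edgeR). The call was lost without control replicate 1 (adjusted p = 0.168), without HCC replicate 1 (0.163) or replicate 2 (0.255), and with DESeq2 (0.066). Mmp2 (ENSRNOG00000016695) encodes gelatinase A, a protease of basement membrane and denatured collagen made by stellate cells. It was at 11.6 and 10.99 CPM in control and 15.5 and 16.7 CPM in HCC livers, again without overlap, with a log2 change of 0.51 ± 0.18 (SE; adjusted p = 0.0411, edgeR). Its call was lost without any 1 of the 4 compared libraries, with adjusted p = 0.0876 and 0.078 without control replicate 1 or 2, 0.17 and 0.304 without HCC replicate 1 or 2, and 0.0787 with DESeq2.

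Timp1 (ENSRNOG00000010208), the secreted inhibitor of matrix metalloproteinases, was at 3.10 and 3.14 CPM in control, from 107 and 104 counts, and at 12.6 and 13.1 CPM in HCC livers. These replicates lay close together in both groups. Its rise of 4.11-fold (log2 change 2.04 ± 0.25, SE; adjusted p = 3.89e-05, edgeR) exceeded that of the protease, with 95% intervals of 1.498 to 2.58 for Timp1 and 0.13 to 0.90 for Mmp2 on the log2 scale. The ratio of Timp1 to Mmp2 counts was 0.268 and 0.286 in control and 0.810 and 0.784 in HCC livers.

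Fn1 (ENSRNOG00000014288) encodes fibronectin, which hepatocytes secrete into plasma and mesenchymal cells lay down in matrix. It fell from 1233 and 1242 CPM to 842 and 826 CPM, with a log2 change of -0.57 ± 0.03 (SE; adjusted p = 6.47e-08, edgeR), and stayed lower with library totals (-0.20, adjusted p = 0.000632, edgeR). Sparc (ENSRNOG00000012840) encodes osteonectin, a collagen-binding matricellular protein. It was at 266 and 271 CPM in control and 209 and 210 CPM in HCC livers, a log2 change of -0.36 ± 0.05 (SE; adjusted p = 0.000149, edgeR) that became 0.01 without a call (adjusted p = 0.868, edgeR) with library totals. Without the TMM correction, in CPM of the library total, Sparc was at 245 and 248 in control and 250 and 248 in HCC livers. The median of all IDs was 0.05 with TMM and 0.42 with library totals, so Sparc lay below the median with both scalings. The fall of Sparc was called with TMM, RLE and upper-quartile scaling and not with library totals.

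**Figure D2:**
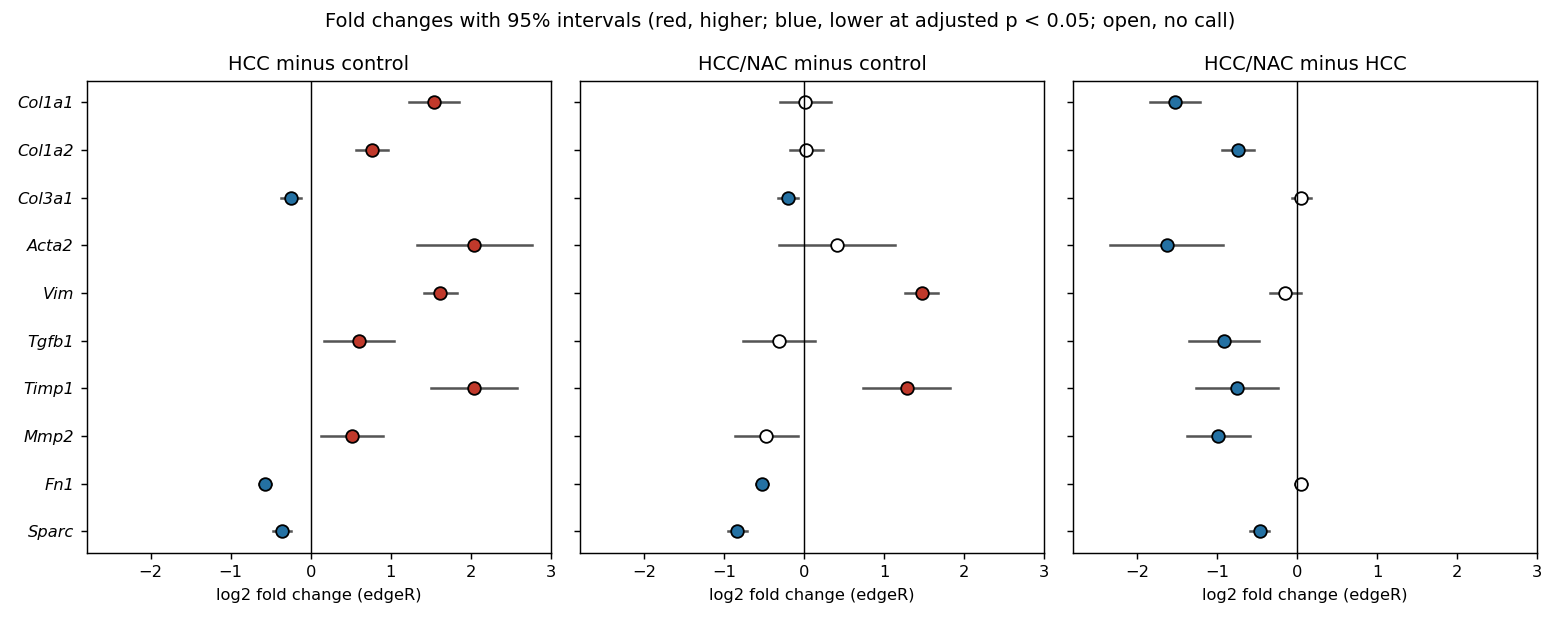
Log2 fold changes of the 10 genes in the 3 comparisons from edgeR fitted to all 6 libraries, with 95% intervals as lines. Red points are called higher, blue points lower and open points have no call at an adjusted p of 0.05. Vim and Timp1 are the 2 genes called higher than control in both carcinogen-treated groups, and Col1a1 and Acta2 show the largest negative values in HCC/NAC minus HCC (-1.53 and -1.63). With library totals Col3a1 and Sparc change sign in the left panel, and Col3a1 and Fn1 in the right panel.

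Livers with and without NAC under the carcinogens were compared as HCC/NAC against HCC. Of the 10 genes 7 were lower with NAC and none was called higher (0), whereas 27.7% of all IDs were called, 16.5% lower and 11.2% higher. The groups did not overlap for 9 of the 10 genes, beside 65.9% of all IDs, and 2 genes (Col1a1 and Acta2) were called with a change of at least 2-fold, beside 8.42%. Among the IDs at least as abundant as the least abundant of the 10, 45.4% were called. At an unadjusted p under 0.05 the count of higher genes was also 0, but Fn1 was called higher with DESeq2 (adjusted p = 0.00873) with RLE (0.0445) or upper-quartile scaling (0.0366), with the stricter filter (0.0233) and with only IDs averaging 10 CPM or more (0.00363), where Col3a1 was called higher too (0.0328). The median log2 change was -0.75, beside -0.05 over all IDs. The 2 HCC libraries enter this comparison and that with control with opposite sign, so the rises above and the falls here are not independent.

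Both type I collagen chains were lower with NAC. Col1a1 was at 15.5 and 14.1 CPM in HCC/NAC livers, below both HCC libraries, with a log2 change of -1.53 ± 0.14 (SE; adjusted p = 8.42e-06, edgeR). Col1a2 was at 36.7 and 36.2 CPM and differed by -0.74 ± 0.09 (SE; adjusted p = 9.11e-05, edgeR). The ratio of Col1a1 to Col1a2 counts was 0.423 and 0.390, within the range of the control libraries. Col3a1 was at 252 and 236 CPM and overlapped the HCC libraries, with a log2 change of 0.05 (95% interval -0.07 to 0.18, adjusted p = 0.559, edgeR). With library totals it was called lower (-0.32, adjusted p = 0.000885, edgeR), where the median of all IDs was -0.42. Without HCC/NAC replicate 1 the log2 change of Col3a1 was -0.02. The ratio of Col3a1 to Col1a1 counts was 16.2 and 16.7.

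Among the cytoskeletal genes, Acta2 and Vim parted. Acta2 was at 5.18 and 3.01 CPM, from 172 and 98 counts, 3.10-fold below HCC livers (log2 change -1.63 ± 0.32, SE; adjusted p = 0.00249, edgeR). Vim was at 71.3 and 64.1 CPM, just under both HCC libraries, and the log2 change of -0.15 (95% interval -0.34 to 0.04) had no call (adjusted p = 0.243, edgeR). With library totals Vim was called lower (-0.52; adjusted p = 0.000499, edgeR), near the median of all IDs. The ratio of Vim to Acta2 counts was 13.8 and 21.3 in HCC/NAC livers, 5.97 and 5.87 in HCC livers and 6.13 and 11.2 in control livers, where the replicates lay widest apart on this measure relative to their mean.

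Tgfb1 was at 6.99 and 6.49 CPM with NAC, a log2 change of -0.91 ± 0.20 (SE; adjusted p = 0.00495, edgeR). Mmp2 was at 7.38 and 8.89 CPM, 1.98-fold below HCC livers (log2 change -0.99 ± 0.18, SE; adjusted p = 0.00144, edgeR). Both calls were kept in every refit that held the gene. With TMM as reported neither change reached 2-fold. With library totals both did, at log2 changes of -1.29 for Tgfb1 and -1.36 for Mmp2. Mmp2 also did so in some other refits, such as that without a filter (-1.02). Timp1 was at 6.20 and 9.01 CPM, with replicates 1.45-fold apart but both below the HCC libraries. Its log2 change of -0.75 ± 0.23 (SE; adjusted p = 0.0312, edgeR) lost its call without HCC replicate 1 (adjusted p = 0.143), without HCC replicate 2 (0.182), without HCC/NAC replicate 1 (0.117) and with DESeq2 (0.0753). The ratio of Timp1 to Mmp2 counts was 0.841 and 1.01, above both HCC libraries.

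The glycoproteins also parted. Fn1 was at 856 and 871 CPM with NAC, slightly above both HCC libraries. Its log2 change of 0.05 (95% interval -0.02 to 0.13, adjusted p = 0.327, edgeR) reversed to -0.32 with library totals (adjusted p = 1.33e-05, edgeR). The median of all IDs was -0.05 with TMM and -0.42 with library totals, so Fn1 lay above the median with both scalings. It was called higher in the 5 refits named above. Sparc was at 152 and 150 CPM, 1.39-fold below HCC livers (log2 change -0.47 ± 0.05, SE; adjusted p = 3.33e-05, edgeR), and was called lower in all 15 alternatives that refitted it.

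**Figure D3:**
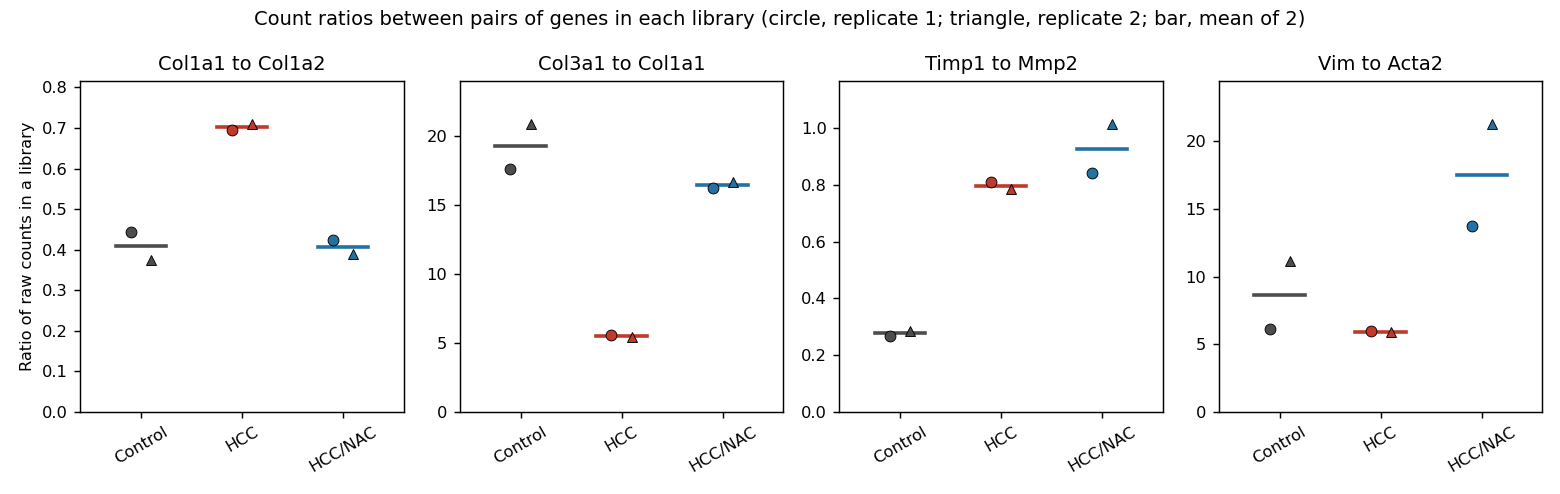
Ratio of raw counts between pairs of the genes within each library, on linear axes from 0, which needs no scaling between libraries but carries gene length, so that only changes between groups can be read. Circles are replicate 1, triangles replicate 2 and bars the mean of 2 libraries. The Col1a1 to Col1a2 ratio is 0.694 and 0.709 in HCC and at most 0.444 elsewhere, whereas the Timp1 to Mmp2 ratio is 0.784 or more in all 4 carcinogen-treated libraries and at most 0.286 in control.

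What remained different from vehicle under carcinogens and NAC together was read from HCC/NAC against control. Of the 10 genes 2 were higher, 3 lower and 5 had no call, while 46.2% of all IDs were called, 21.3% higher and 24.9% lower, and 64.7% of those at least as abundant as the least abundant of the 10. The share of called genes was thus near the background. The groups did not overlap for 7 of the 10 genes, beside 70.1% of all IDs, and Vim and Timp1 were called with a change of at least 2-fold, beside 24.5%. The median log2 change was -0.09, beside 0.05 over all IDs. The control libraries are the same as in the comparison with HCC, so the values below are given beside those above and no agreement between them is counted.

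Vim was 2.77-fold above control (log2 change 1.47 ± 0.09, SE; adjusted p = 9.23e-08, edgeR), beside 3.07-fold in HCC livers. Timp1 was 2.44-fold above control (1.29 ± 0.25, SE; adjusted p = 0.00112, edgeR), beside 4.11-fold. Both were called in each alternative tested. Sparc was 1.78-fold below control (-0.83 ± 0.05, SE; adjusted p = 9e-08, edgeR), and was called lower under each scaling. Fn1 was 1.43-fold below control (-0.52 ± 0.03, SE; adjusted p = 1.43e-07, edgeR). Col3a1 was lower by TMM (-0.20 ± 0.06, SE; adjusted p = 0.013, edgeR), a call absent in 9 of 15 alternatives, among them the fits without control replicate 1 (adjusted p = 0.0691), control replicate 2 (0.0708) or HCC/NAC replicate 2 (0.051), and 1 of them, with only IDs of at least 10 CPM, gave 0.01.

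The type I collagen genes were close to control. The log2 change was 0.01 for Col1a1 (95% interval -0.30 to 0.33; adjusted p = 0.946, edgeR) and 0.03 for Col1a2 (-0.18 to 0.23; adjusted p = 0.834, edgeR), and the libraries of the 2 groups overlapped for both genes. Col1a2 was called higher (0.24; adjusted p = 0.0429, edgeR) in 1 alternative, the fit to IDs averaging 10 CPM or more. The Col1a1 interval leaves room for a difference of about 0.33 in either direction, and its sign changed in 5 of 15 alternatives. Acta2 had a wide interval of -0.31 to 1.14 around 0.41 (adjusted p = 0.337, edgeR), since the replicates of both groups lay over 1.7-fold apart. Its value was 0.85 and 0.14 without control replicate 1 or 2 and -0.05 and 0.73 without HCC/NAC replicate 1 or 2, with no call in any of these. Tgfb1 lay below both control libraries without a call (-0.31; 95% interval -0.76 to 0.13; adjusted p = 0.236, edgeR), and the value went to -0.47 without control replicate 1 and to -0.08 without control replicate 2. Mmp2 lay below both control libraries at the edge of the threshold (-0.47; 95% interval -0.87 to -0.08; adjusted p = 0.0503, edgeR) and was called without HCC/NAC replicate 2 (adjusted p = 0.0238) and with library totals (0.0482).

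Ordered by mean level, the groups fell into 4 patterns. Col1a1, Col1a2 and Acta2 were highest in HCC livers, with control and HCC/NAC not apart beyond their spread. Tgfb1 and Mmp2 were highest in HCC and lowest in HCC/NAC livers, with no call between the lower 2 groups. Vim and Timp1 were lowest in control, with HCC/NAC between control and HCC, though for Vim the upper 2 groups had no call between them. Fn1, Sparc and Col3a1 were highest in control with TMM scaling, with the exceptions under other scalings given above. Timp1 and Sparc were called between each pair of groups, and the share of all IDs so called was not counted. The Timp1 call between HCC and HCC/NAC livers was lost in 4 of 14 alternatives. Sparc descended from control to HCC to HCC/NAC, of which the step from control to HCC was absent with library totals, and Timp1 stood in the order control, HCC/NAC, HCC. Across the 6 libraries, the log2 CPM of Tgfb1, Mmp2, Col1a1 and Col1a2 correlated with the mean of the other 9 genes at r = 0.93, 0.93, 0.91 and 0.90 and that of Acta2 at 0.78, whereas Vim (r = 0.09), Sparc (0.21), Timp1 (0.37), Fn1 (-0.44) and Col3a1 (-0.48) did not follow it closely. These coefficients describe 6 libraries in 3 groups and are not tested.

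**Figure D4:**
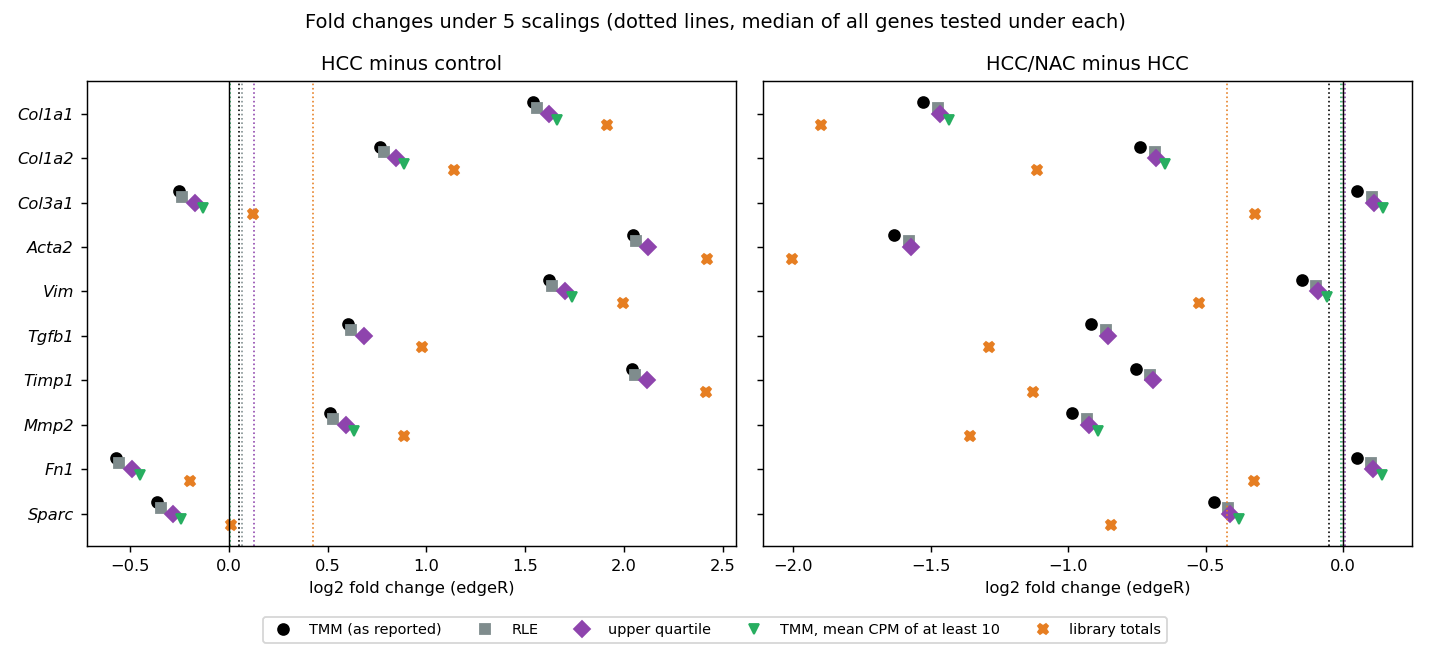
Log2 fold changes of the 10 genes under 5 ways of scaling the libraries, in HCC minus control (left) and HCC/NAC minus HCC (right), with dotted lines at the median of all IDs under each. Acta2, Tgfb1 and Timp1 have no point in the fit limited to IDs of at least 10 CPM. Library totals move every gene by about the same amount (the median of all IDs goes from 0.05 to 0.42 and from -0.05 to -0.42), which turns the sign of Col3a1 and Sparc on the left and of Col3a1 and Fn1 on the right.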

How the data were processed

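The deposited tables, 1 per library, hold unnormalized counts for each Ensembl rat gene ID, made by the authors from STAR alignments per the file headers. The submitters' processing notes list STAR, featureCounts, FastQC and edgeR. Not given in the sources used here are their versions, the genome build, the annotation release, the settings for strand and shared reads and any removal of duplicates; a count therefore stands for reads and not for molecules. Reads that overlap neighbouring or antisense genes may have been assigned to either.

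The counts of all 6 libraries were fitted together in edgeR 4.0.16 (R 4.3.3) with filterByExpr, TMM scaling and a mean per group, which leaves 3 residual degrees of freedom, and the 10 genes were read from that fit and not tested as a set. Standard errors and 95% intervals come from the F statistic of that fit. The intervals use its total degrees of freedom, which add to the 3 residual ones those that edgeR borrows across genes, and are narrower for it. The method was tested on simulated data. The genes and comparisons were chosen with earlier results of these data known. All 10 genes of the list are named. The other gene lists and cell type markers set in the plan needed symbols and were not used. Alternatives were DESeq2 1.42.0, upper-quartile and RLE scaling, no filter or a stricter one (4 or more libraries with CPM of 1 or more), a block by replicate number, only the groups compared, a 2-fold limit, and leaving out each library. Scaling by library totals and a restriction to IDs averaging 10 CPM or more were added after the data were seen. Promoter motifs were searched on both strands of the RefSeq GRCr8 windows.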

Additional observations from a re-analysis of the deposited data

How the results depend on the processing

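Of 441 refitted values of single genes (10 genes, 3 comparisons), 398 kept their direction and their side of the threshold, 21 lost a call, 10 gained 1 and 12 changed sign. A call lost or gained together with a change of sign is counted only among the 12. With a 2-fold limit the genes called dropped from 10 to 4 in HCC against control, from 5 to 2 in HCC/NAC against control and from 7 to 2 in HCC/NAC against HCC; in the other alternatives the 3 counts ranged from 7 to 10, 4 to 6 and 6 to 10. With only IDs of at least 10 CPM, 3 of the 10 genes were not tested, which lowers its counts. The number of all IDs called moved too, so these ranges are not particular to the 10 genes. As reported it was 5883, 7807 and 4686 of 16898 in the 3 comparisons, and with library totals 6934, 7823 and 6594. With only IDs of at least 10 CPM it was 4385, 5247 and 4062 of 7516. Where leaving out 1 library leaves 1 library in a group, that library is assumed to vary like the others. Nothing in the labels says that a replicate number marks a shared animal or batch, and same-numbered libraries did not deviate together (r of the replicate differences across IDs -0.0072, 0.0067 and 0.0023); with the replicate number as a block 10, 5 and 7 genes were called, as without it. The sign changes were as follows, and beyond the scaling itself the cause was not tested. With library totals, Col3a1 and Sparc in HCC against control went to 0.124 and 0.013, and Col3a1 and Fn1 in HCC/NAC against HCC to -0.32 and -0.32. In HCC/NAC against control the uncalled value of Col1a1 went to -0.0102 without a filter, to -0.0040 and -0.0035 without HCC replicate 1 or 2, to -0.0654 without control replicate 2 and to -0.0742 without HCC/NAC replicate 1, a range of -0.0742 to 0.170 over the libraries left out; Col3a1 went to 0.0138 with IDs of at least 10 CPM, and Acta2 to -0.0472 without HCC/NAC replicate 1 (range to 0.853). Without that replicate Col3a1 in HCC/NAC against HCC went to -0.0188 (range to 0.0801).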

Other observations

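Among the 9672 other IDs that averaged 5 CPM or more, the 2 whose log2 CPM over the 6 libraries was most like the mean standardised profile of the 10 genes were ENSRNOG00000073837 and ENSRNOG00000016251, with Pearson's r of 1.00 each over 6 libraries. ENSRNOG00000073837 was at 11.2 ± 2.0 CPM (SD, n = 2) without carcinogens, 68.8 ± 0.20 with them and 4.94 ± 1.1 with NAC added. ENSRNOG00000016251 moved far less, at 86.9 ± 2.2, 99.2 ± 0.25 and 81.9 ± 0.98 CPM (SD, n = 2 each), so likeness of profile says nothing of the size of a change. With 3 groups of 2 libraries such coefficients rest on few values and can easily be high. Of the 9672 IDs searched, 128 reached r of at least 0.95. The genes behind these IDs were not analysed here.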
